A study of Mus musculus with 20 samples.

Results

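The lysyl oxidase family of the mouse consists of 5 genes, Lox and Loxl1 to Loxl4, and the members were taken here as the rows whose Ensembl identifiers carry these symbols in the GENCODE vM21 annotation. They are 5 of the 54532 genes in the count table, and all 5 passed the filter on low counts that left 15543 genes for testing. RNA was sequenced from pieces of thoracic aorta of C57BL/6J mice in 20 libraries, 5 in each of 4 groups: descending aorta after BAPN, descending aorta after water, ascending aorta after BAPN, and ascending aorta after water. Mice took BAPN (β-aminopropionitrile) or water for 1 week, all were of the same strain, and no allele or transgene was named for any group. Age, sex and dose were not given in the sources used here. The study set the 2 regions and the 2 treatments against each other. The labels did not say that the libraries of a group came from separate animals, so p-values measure the spread between these libraries, which may be technical.

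Lysyl oxidases are secreted amine oxidases that hold copper and a quinone cofactor made from their own amino acids. They turn lysine side chains of elastin and collagens into aldehydes, which then join neighbouring chains into the crosslinks that give the aortic wall its strength. BAPN binds these enzymes irreversibly and blocks them, and loss of Lox in mice leads to rupture and aneurysm of the aorta. Lox and Loxl1 carry a propeptide that proteases remove, whereas Loxl2, Loxl3 and Loxl4 carry scavenger receptor domains before the catalytic domain. The RNA libraries report on transcripts and not on the activity that BAPN blocks.

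The stretch that marks the family is the one around the histidines that bind copper, and it is shown for the 4 members whose sequence is printed, to let the catalytic sites be compared. Each line gives 63 bases of the coding strand from the GENCODE vM21 transcripts (GRCm38), 5′ to 3′, with the 4 histidine codons of the motif in capitals.
Loxl1: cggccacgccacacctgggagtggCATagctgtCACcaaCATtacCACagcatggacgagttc
Loxl2: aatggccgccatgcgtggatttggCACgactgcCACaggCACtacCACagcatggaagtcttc
Loxl3: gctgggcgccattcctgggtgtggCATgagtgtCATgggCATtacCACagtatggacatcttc
Loxl4: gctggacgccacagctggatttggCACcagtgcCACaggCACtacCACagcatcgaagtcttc
Each stretch was found by a fixed amino acid motif that holds the 4 histidines, so their codons lie at the same places by construction. The motif was found in all 5 genes, and in all 5 an exon junction divided the stretch into 38 and 25 bases. Of the 63 bases, Lox and Loxl1 shared 56 (88.9%), the closest of the 10 pairs. Loxl2 and Loxl4 shared 53 (84.1%), and the most distant pair, Lox and Loxl4, shared 38 (60.3%). No pair of members shared any run of 50 bases in its transcripts, so reads of that length matching in full belong to 1 member.

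On GRCm38 the 5 protein-coding genes lie on separate chromosomes. Loxl1 (ENSMUSG00000032334) is at chr9:58287738-58313186 on the minus strand, with the printed bases in exons 3 and 4 of 7. Loxl2 (ENSMUSG00000034205) is at chr14:69609068-69695834 on the plus strand, with the printed bases in exons 10 and 11 of 14. Loxl3 (ENSMUSG00000000693) is at chr6:83034173-83052562 on the plus strand, with the printed bases in exons 10 and 11 of 14. Loxl4 (ENSMUSG00000025185) is at chr19:42593982-42612813 on the minus strand, with the printed bases in exons 11 and 12 of 15. Lox (ENSMUSG00000024529) is at chr18:52516067-52529867 on the minus strand. The coding sequences, stop codon included, run to 1236 bases in Lox, 1824 in Loxl1, 2331 in Loxl2, 2265 in Loxl3 and 2277 in Loxl4. Exons of Loxl3 overlap those of Htra2, a mitochondrial protease gene on the opposite strand, over 535 bases (11.6% of Loxl3's exons). The sources used here did not state whether counting used the strand, so in those bases the reads of both genes may not have been told apart.

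Libraries held 15.7 M to 23.3 M counts, and each pair of replicates differed by more than counting noise alone gives. Levels are CPM, the usual count of reads relative to library size, with the size corrected by the trimmed mean of M values. Sums of marker CPM are the exception and use the library size without that correction. The libraries fell into 2 sets of 10 by the first principal component of 33 genes. These were the genes averaging at least 2 CPM whose symbol contains -ps, which marks pseudogenes. All ascending BAPN libraries were in the set with higher pseudogene levels and all descending BAPN libraries in the set with lower levels. The water groups were split: ascending water replicates 4 and 5 and descending water replicates 1, 2 and 5 were in the higher set. Smooth muscle markers, 8 of 8 of them present throughout, fitted the label of aorta. Regional samples also differed in other tissues' RNA, as given with the regional results.

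Lox and Loxl1 made up most of the family's RNA in both regions. Per kb of exon, Loxl1 averaged 229 CPM over the 20 libraries and Lox 215 CPM, which ranked 155th and 166th among all genes tested. Loxl2 averaged 21.7 CPM per kb, Loxl3 16.5 and Loxl4 3.27. Loxl4 thus stood at the low end, with 55.0% of the genes tested above it. Raw counts per library ran from 13410 to 29715 for Lox and from 156 to 326 for Loxl4, and the biological coefficient of variation was 0.064 for Lox and 0.098 for Loxl4.

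The order of the leading pair depended on the group. In descending BAPN libraries Lox was the higher, at 286 ± 15.6 CPM per kb (SD, n = 5), and Loxl1 stood at 248 ± 10.7, with no overlap between the ranges of 269 to 306 and 231 to 259. In descending water libraries Lox had 240 ± 15.9 CPM per kb and Loxl1 249 ± 14.3, and in ascending BAPN libraries Lox had 182 ± 8.15 and Loxl1 198 ± 7.63 (SD, n = 5 each), and in both groups their ranges overlapped. Library by library, Loxl1 exceeded Lox per kb in 3 of 5 descending water libraries and in 5 of 5 ascending BAPN libraries. In ascending water libraries the order was the opposite, with Lox at 153 ± 10.1 CPM per kb and Loxl1 at 220 ± 13.2 (SD, n = 5 each) and no overlap. Loxl2 and Loxl3 overlapped in descending BAPN libraries, at 18.5 to 23.1 and 16.3 to 19.4 CPM per kb, and in the other 3 groups every library had more Loxl2 per kb than Loxl3. Loxl4 was lowest in every library.

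Lox accordingly took 49.6 ± 1.92% of the family's summed CPM per kb in descending BAPN libraries, against 44.9 ± 1.95% in descending water libraries (SD, n = 5 each). Ascending libraries gave it 43.6 ± 0.841% after BAPN, against 37.1 ± 1.34% after water (SD, n = 5 each). The 2 treatments did not overlap in either region. Loxl1 ran the other way, with 43.1 ± 1.86% in descending BAPN libraries against 46.6 ± 1.82% in descending water libraries, and 47.3 ± 0.890% in ascending BAPN libraries against 53.2 ± 1.21% in ascending water libraries (SD, n = 5 each). Loxl1 shares overlapped between treatments in the descending aorta (40.7 to 45.0% after BAPN, 44.7 to 48.5% after water) and not in the ascending aorta. The family's sum was 577 ± 16.2 CPM per kb in descending BAPN libraries against 535 ± 24.2 in descending water libraries, and 418 ± 15.2 in ascending BAPN libraries against 414 ± 21.7 in ascending water libraries (SD, n = 5 each). Shares of a sum move against one another by construction, so they are given as a description with no test.

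**Figure D1:**
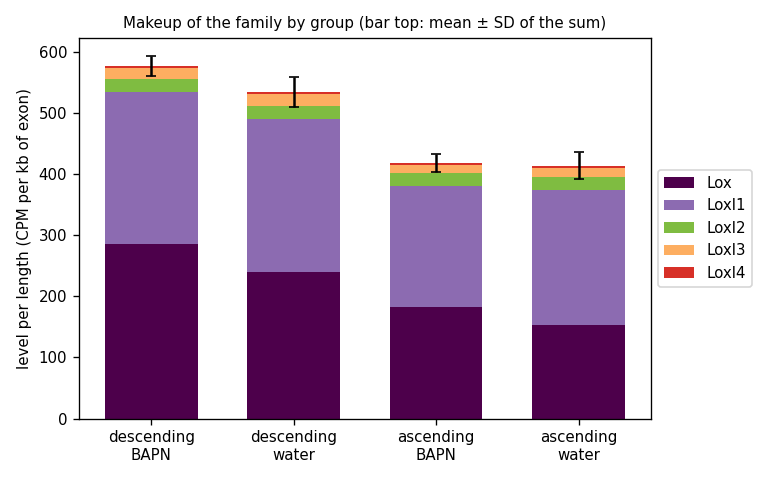
Makeup of the lysyl oxidase family by group. Stacked bars give the mean CPM per kb of exon of each member, and the error bar is the SD of the sum over 5 libraries, for descending BAPN, descending water, ascending BAPN and ascending water libraries. Lox takes the largest share in descending BAPN libraries (49.6%) and Loxl1 in ascending water libraries (53.2%).

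Lox encodes the family's founding enzyme, which crosslinks elastin and fibrillar collagen and without which the elastic layers of the aorta break. The 5 descending BAPN libraries held 1301, 1365, 1286, 1462 and 1414 CPM of Lox, against 1043, 1198, 1174, 1094 and 1225 CPM in the 5 descending water libraries. The 5 ascending BAPN libraries held 833, 915, 906, 861 and 834 CPM, against 680.1, 772, 795, 709 and 708 CPM in the 5 ascending water libraries. In each region every BAPN library lay above every water library, and every descending library lay above every ascending library whatever the treatment. The 4 groups therefore formed 4 bands without overlap.

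Lox RNA was 1.19-fold higher with BAPN in both regions. The log2 difference between BAPN and water was 0.25 (SE 0.05) in the descending aorta, with an adjusted p of 0.000674 in edgeR's quasi-likelihood test. It was also 0.25 (SE 0.05) in the ascending aorta, where edgeR gave an adjusted p of 0.00129. Averaged over both regions the difference was 0.25 (SE 0.03; edgeR adjusted p = 2.64e-06). The BAPN difference in the descending aorta minus that in the ascending aorta was 0.00 (SE 0.07; 95% interval -0.13 to 0.14; edgeR adjusted p = 0.997). The interval leaves room for a regional gap of that size in either direction.

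Within the sets of libraries, the Lox difference between BAPN and water was 0.26 among the descending libraries with lower pseudogene levels and 0.30 among the ascending libraries with higher levels. Each rests on 5 BAPN libraries and 2 water libraries, and edgeR called both, with adjusted p of 0.0239 in the descending and 0.000627 in the ascending aorta. The summed CPM of 8 smooth muscle markers, on library size alone, moved with treatment too. Descending sums were 22533 to 24569 after BAPN and 19736 to 21542 after water. Ascending sums were 23849 to 25750 after BAPN and 20358 to 22177 after water. Acta2, the actin of smooth muscle, was the 1 marker of the 8 called higher in the descending aorta, where 10.7% of all genes tested were called. In the ascending aorta Acta2 and Synpo2 were called, where 6.61% of all genes were called. On the corrected scale, which the sums do not use, Acta2 had 15084 ± 715 CPM in descending BAPN against 11926 ± 693 CPM in descending water libraries. It had 14272 ± 689 CPM in ascending BAPN against 11452 ± 463 CPM in ascending water libraries (SD, n = 5 each). The list did not move as one: over both regions Acta2, Myh11 and Synpo2 were called higher and Smtn lower, where 17.7% of all genes were called. The part of these marker differences in the Lox result was not tested, and in bulk tissue fewer cells of a type and less RNA per cell cannot be told apart.

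**Figure D2:**
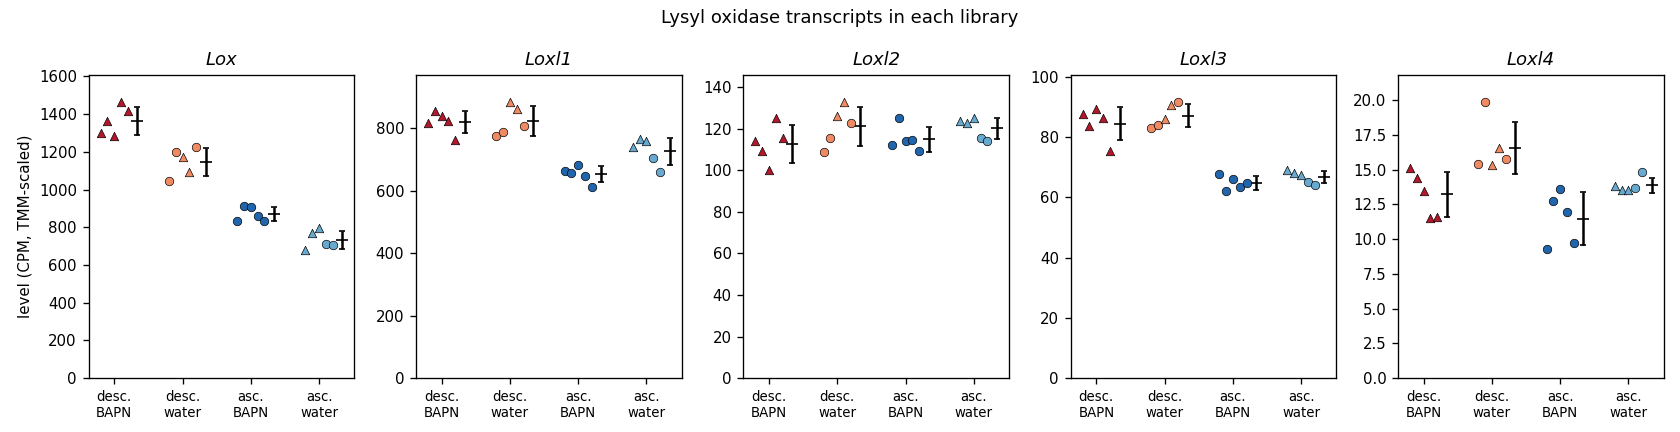
CPM of each lysyl oxidase gene in every library, in the order descending BAPN, descending water, ascending BAPN and ascending water. Each point is a library (circles, higher pseudogene levels; triangles, lower levels) and bars are the mean ± SD of 5 libraries. Lox forms 4 bands that do not overlap, from 1286 to 1462 CPM in descending BAPN libraries down to 680.1 to 795 CPM in ascending water libraries.

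Loxl1 encodes the member that acts mainly on elastin and maintains elastic fibres in adult tissue. The 5 descending BAPN libraries held 817, 855, 838, 822 and 762 CPM of Loxl1, against 774, 786, 883, 861 and 807 CPM in the 5 descending water libraries. The 5 ascending BAPN libraries held 662, 657, 682, 649 and 613 CPM, against 739.8, 766, 758, 705 and 661 CPM in the 5 ascending water libraries. The treatments overlapped throughout in the descending aorta. In the ascending aorta they overlapped only through water replicate 5, at 661 CPM, which lay below 2 of the BAPN libraries.

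The log2 difference of Loxl1 between BAPN and water was -0.15 (SE 0.05; edgeR adjusted p = 0.0351) in the ascending aorta, a called decrease. In the descending aorta it was -0.01 (SE 0.05; 95% interval -0.10 to 0.08; edgeR adjusted p = 0.965). The call in the ascending aorta moved with the library sets. Ascending water replicates 1 to 3, from the lower set, had 739.8 to 766 CPM, while replicates 4 and 5, from the same set as the BAPN libraries, had 705 and 661 CPM. Among the higher-set libraries alone the difference was -0.07 (SE 0.05; edgeR adjusted p = 0.541), and with the set as a term it was -0.07 (SE 0.04; edgeR adjusted p = 0.508). The call was also lost when any 1 of 6 libraries was left out (ascending BAPN replicate 2, 4 or 5, or ascending water replicate 1, 2 or 3), with edgeR adjusted p of 0.0655 to 0.104. The difference between the regions' effects, descending minus ascending, was 0.15 (SE 0.06; unadjusted p = 0.0281; edgeR adjusted p = 0.664), and with the set as a term it was -0.02.

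Loxl2 encodes a member known for crosslinking collagen IV of basement membranes as well as fibrillar collagens. The 5 descending BAPN libraries held 114, 109, 100.1, 125 and 115 CPM of Loxl2, against 109, 116, 126, 133 and 123 CPM in the 5 descending water libraries. The 5 ascending BAPN libraries held 112, 125, 114, 115 and 109 CPM, against 124, 123, 125, 116 and 114 CPM in the 5 ascending water libraries. All 4 groups overlapped, which made Loxl2 the flattest member across the series. The log2 difference between BAPN and water was -0.10 (95% interval -0.21 to 0.00; edgeR adjusted p = 0.249) in the descending aorta and -0.06 (95% interval -0.17 to 0.04; edgeR adjusted p = 0.558) in the ascending aorta. In the descending aorta the difference was larger with the library set as a term, at -0.18 (SE 0.06), which edgeR called (adjusted p = 0.0426). Among the lower-set libraries alone it was -0.20 (SE 0.07; edgeR adjusted p = 0.143), from 5 BAPN and 2 water libraries.

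Loxl3 encodes a member needed in mice for the skeleton and palate, and its enzyme acts on collagens and elastin. The 5 descending BAPN libraries held 87.6, 83.7, 89.3, 86.4 and 75.3 CPM of Loxl3, against 83.0, 84.1, 85.9, 90.6 and 91.5 CPM in the 5 descending water libraries. The 5 ascending BAPN libraries held 67.6, 62.2, 66.1, 63.3 and 64.6 CPM, against 69.1, 68.1, 67.3, 65 and 64.2 CPM in the 5 ascending water libraries. Treatments overlapped in both regions, while the regions were apart, with the lowest descending library at 75.3 CPM and the highest ascending one at 69.1 CPM. BAPN differences were -0.04 in each region, with 95% intervals of -0.13 to 0.05 in the descending aorta (edgeR adjusted p = 0.648) and -0.14 to 0.05 in the ascending aorta (edgeR adjusted p = 0.681). The overlapping gene Htra2 averaged 23.1 ± 3.82 CPM in descending BAPN, 24.7 ± 2.17 in descending water, 22.9 ± 2.49 in ascending BAPN and 22.5 ± 1.91 in ascending water libraries (SD, n = 5 each).

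Loxl4 encodes the member with the least RNA in these samples, and its enzyme is also a secreted amine oxidase that acts on collagen. The 5 descending BAPN libraries held 15.1, 14.4, 13.5, 11.5 and 11.6 CPM of Loxl4, against 15.4, 19.8, 15.3, 16.5 and 15.8 CPM in the 5 descending water libraries. The 5 ascending BAPN libraries held 9.28, 12.8, 13.6, 12.0 and 9.71 CPM, against 13.9, 13.6, 13.5, 13.7 and 14.8 CPM in the 5 ascending water libraries. In the descending aorta every BAPN library lay below every water library. In the ascending aorta the groups met only at BAPN replicate 3, and the water libraries lay within 13.5 to 14.8 CPM.

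Averaged over both regions, Loxl4 RNA was 0.812 of its level in water libraries, a log2 difference of -0.30 (SE 0.07; edgeR adjusted p = 0.00242). This decrease kept its call under every alternative run for it, including the set term (-0.30; edgeR adjusted p = 0.00256) and each left-out library. The share of higher-set libraries was larger after BAPN in the ascending aorta and smaller by the same amount in the descending aorta. That imbalance cancels in the mean of both regions, so the set term was no check on the mean. The test of the mean also took the libraries of the 2 regions as independent, which the labels do not state. By region the calls were less firm. The difference was -0.33 (SE 0.10; edgeR adjusted p = 0.0296) in the descending aorta and -0.27 (SE 0.10; edgeR adjusted p = 0.102) in the ascending aorta. The descending call was lost without BAPN replicate 4 or 5 or water replicate 2, at edgeR adjusted p of 0.0838 to 0.126, and with the library set as a term (-0.28; edgeR adjusted p = 0.155). The difference between the regions was -0.05 (SE 0.14; 95% interval -0.33 to 0.23; edgeR adjusted p = 0.980).

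**Figure D3:**
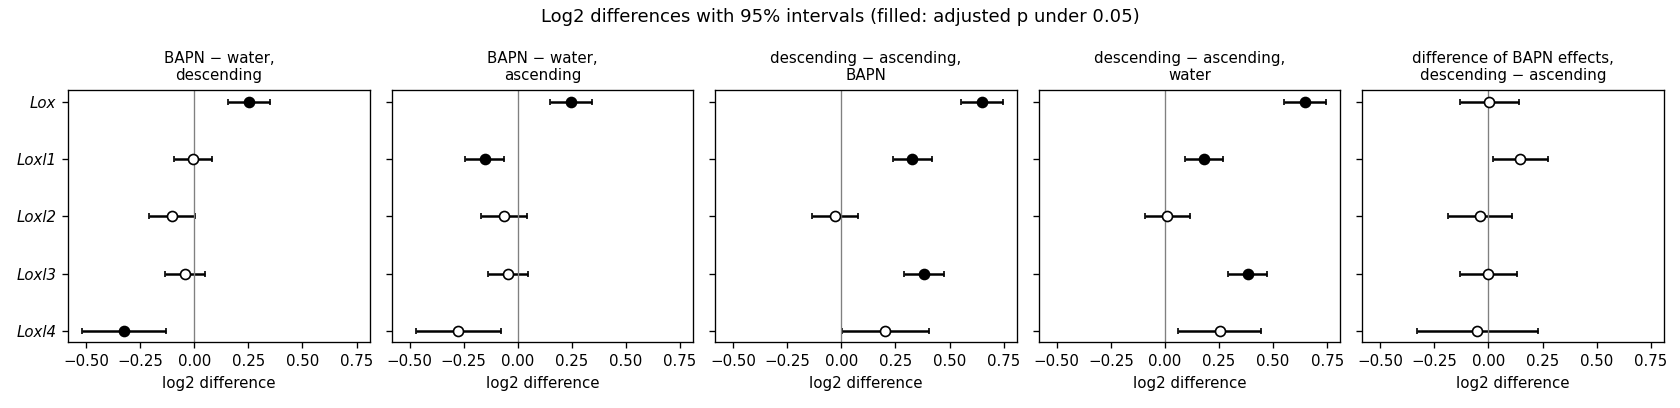
Log2 differences of the 5 lysyl oxidase genes for BAPN against water in each region, for the 2 regional comparisons, and for the difference of the BAPN effects. Bars are 95% intervals by a normal approximation to edgeR's results, and filled points were called. The BAPN difference of Lox is 0.25 in both regions, while those of Loxl4 are -0.33 in the descending and -0.27 in the ascending aorta.

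Counted over the family, edgeR called 1 member higher (Lox) and 1 lower (Loxl4) of 5 in the descending aorta after BAPN, where 10.7% of all genes tested were called. In the ascending aorta it also called 1 higher (Lox) and 1 lower (Loxl1) of 5, where 6.61% of all genes were called. For the mean of both regions it called 1 higher (Lox) and 1 lower (Loxl4) of 5, against 17.7% of all genes. DESeq2 and limma-voom made the same number of calls in each direction in these 3 comparisons. For the difference of the BAPN effect between regions edgeR called 0 of 5 members and 0% of all genes, DESeq2 and limma-voom also called 0 of 5, and 1 member, Loxl1, had an unadjusted p under 0.05. Over all genes 1041 (6.70%) had an unadjusted p under 0.05 for that difference, while DESeq2 called 14 and limma-voom 0.

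For Lox and Loxl3 the regional differences were larger than the differences between treatments. Lox was 1.57-fold higher in descending than in ascending libraries after BAPN (log2 difference 0.65, SE 0.05; edgeR adjusted p = 1.16e-12) and 1.56-fold higher after water (0.65, SE 0.05; edgeR adjusted p = 1.39e-12). Loxl3 was 1.30-fold higher in the descending aorta under each treatment (log2 difference 0.38, SE 0.05 in each; edgeR adjusted p = 5.63e-08 after BAPN and 4.97e-08 after water). Loxl1 was higher in the descending aorta as well, by 0.33 on the log2 scale after BAPN (SE 0.05; edgeR adjusted p = 5.56e-07) and by 0.18 after water (SE 0.05; edgeR adjusted p = 0.00248). Loxl2 gave -0.03 after BAPN (95% interval -0.13 to 0.08; edgeR adjusted p = 0.753) and 0.01 after water (95% interval -0.09 to 0.12; edgeR adjusted p = 0.908). Loxl4 gave 0.20 (SE 0.10; edgeR adjusted p = 0.142) after BAPN and 0.25 (SE 0.10; edgeR adjusted p = 0.0524) after water.

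Lox, Loxl1 and Loxl3 were thus called higher in the descending aorta, 3 of 5 members under each treatment, against 29.6% of all genes called in either direction after BAPN and 27.3% after water. The regional calls after BAPN set libraries of the lower pseudogene set against libraries of the higher set only, so no comparison within a set was possible. With the set as a term the differences after BAPN were 0.62 for Lox, 0.18 for Loxl1 and 0.33 for Loxl3, and all 3 remained called. The effect of the set in that fit came from the water libraries alone, since neither BAPN group held both sets. It was assumed to be the same after BAPN, which these libraries cannot check. After water, the differences within the higher and the lower set were 0.70 and 0.60 for Lox, 0.20 and 0.21 for Loxl1, and 0.41 and 0.37 for Loxl3, all called by edgeR in both sets.

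The regional samples also differed in the RNA of other tissues. Of all genes tested, 29.6% were called between regions after BAPN and 27.3% after water. Summed CPM of 8 cardiomyocyte markers ran from 73.8 to 89.0 in descending libraries and from 504 to 1484 in ascending libraries, and all 8 were called lower in the descending aorta under each treatment. The 6 mesothelial markers summed to 0.882 to 12.4 CPM in descending and 226 to 411 CPM in ascending libraries, with 6 of 6 called lower. The 8 chondrocyte markers summed to 63.0 to 80.2 CPM in descending and 169.7 to 282 CPM in ascending libraries, with 7 of the 7 tested called lower and Matn1 at 0 counts in every descending library. Adventitial fibroblast markers, 8 in all, summed to 2724 to 3375 CPM in descending and 4338 to 4954 CPM in ascending libraries, and 5 of 8 were called lower in the descending aorta under each treatment while Serpinf1 was called higher under both and Scara5 after BAPN. Brown adipocyte markers, 7 in all, ran from 85.8 to 225 CPM in descending and from 25.1 to 115 CPM in ascending libraries, with Ucp1, Cidea and Elovl3 called higher under each treatment. The 6 Schwann cell markers summed to 12.6 to 18.1 CPM in descending and 24.6 to 32.7 CPM in ascending libraries, with 4 of 6 called lower under each treatment. Of 8 endothelial markers, Kdr and Emcn were called lower and Vwf higher under each treatment, and Pecam1 was called higher after BAPN. Of 8 macrophage markers, Cd163 was called higher under each treatment. Smooth muscle sums overlapped between regions, at 19736 to 24569 CPM in descending and 20358 to 25750 CPM in ascending libraries. The part of these tissues in the regional differences of Lox, Loxl1 and Loxl3 was not tested.

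Lox was next set against Eln, which encodes elastin, the principal protein that lysyl oxidase crosslinks in the aorta. Counts of Lox equalled 3.33, 3.05, 2.94, 3.43 and 4.21% of Eln counts in the descending BAPN libraries, against 2.52, 2.61, 2.26, 2.11 and 2.54% in the descending water libraries. In the ascending aorta they equalled 4.46, 4.36, 4.39, 4.29 and 4.24% in the BAPN libraries, against 2.51, 2.82, 2.79, 2.87 and 2.80% in the water libraries. In both regions every BAPN library exceeded every water library. Mean enzyme and substrate RNA moved in opposite directions: Eln itself averaged 40752 ± 4517 CPM in descending BAPN and 47874 ± 4403 CPM in descending water libraries, and 20008 ± 902 CPM in ascending BAPN and 26582 ± 1537 CPM in ascending water libraries (SD, n = 5 each). Descending Eln overlapped between treatments, at 33610 to 44694 CPM after BAPN and 41423 to 51984 CPM after water (log2 difference -0.23; edgeR adjusted p = 0.0241). Ascending Eln did not overlap (-0.41; edgeR adjusted p = 0.000238).

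On the log2 scale the Lox to Eln ratio was higher with BAPN by 0.49 (SE 0.11) in the descending aorta and by 0.66 (SE 0.04) in the ascending aorta; whether these 2 differ was not tested. Each reached the smallest p that the exact two-sided permutation test of 5 against 5 libraries can give, 0.00794 (adjusted p = 0.0106 over 4 comparisons). The ratio was lower in descending than in ascending libraries after BAPN, with a log2 difference of -0.37 (SE 0.09; exact permutation p = 0.00794, adjusted 0.0106), and after water, at -0.20 (SE 0.07; exact permutation p = 0.0317, adjusted 0.0317). So although Lox RNA was higher in the descending aorta, Eln RNA was higher there by a wider margin. Within the library sets the BAPN difference was 0.62 in each region (5 against 2 libraries; exact permutation p = 0.0476, the smallest possible). The regional difference after BAPN lay wholly between the sets, so it could not be compared within a set. No set term was run for the ratio. For Eln alone the regional log2 difference after BAPN was 1.03 (SE 0.07), and 0.85 (SE 0.08) with the set as a term. The regional difference after water was -0.15 in the higher set (3 against 2 libraries) and -0.31 in the lower set (2 against 3 libraries), each with an exact permutation p of 0.100, the smallest possible. That regional call was lost without any 1 of ascending water replicates 2 to 5, where the difference was -0.19 and the exact permutation p was 0.0556 to 0.0714.

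**Figure D4:**
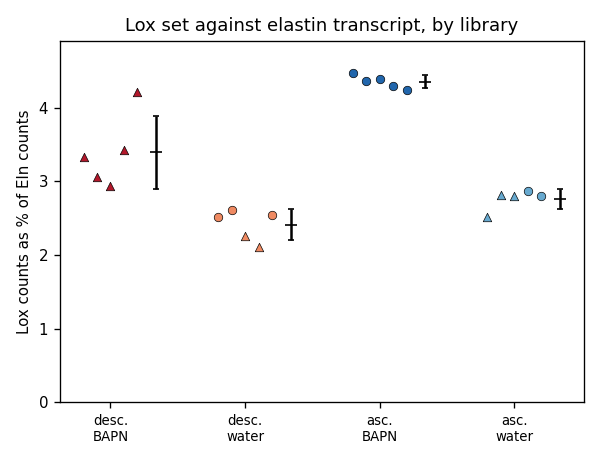
Lox counts as a percentage of Eln counts in each library, for descending BAPN, descending water, ascending BAPN and ascending water (points, libraries; circles and triangles, higher and lower pseudogene levels; bars, mean ± SD of 5 libraries). The means are 3.39%, 2.41%, 4.35% and 2.76%, and BAPN and water libraries do not overlap in either region.

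The wider crosslinking pathway was followed in 44 genes chosen by role, of which 41 passed the filter. After BAPN edgeR called 3 higher and 6 lower in the descending aorta, where 10.7% of all genes tested were called, and 0 higher and 11 lower in the ascending aorta, where 6.61% were called. On the higher side 2 genes had an unadjusted p under 0.05 in the ascending aorta, and DESeq2 and limma-voom also called 0 higher there. The median log2 difference over the 41 genes was -0.0046 in the descending aorta, beside -0.00027 over all genes tested, and -0.065 in the ascending aorta, beside -0.0051 over all genes. With the library set as a term 1 higher and 4 lower remained in the descending aorta and 6 lower in the ascending aorta. For the mean of both regions 2 were called higher and 11 lower (17.7% of all genes tested were called), all 13 remained called with the term, and the term gave 3 higher and 12 lower. The imbalance of the sets between treatments is opposite in the regions and cancels in their mean. The term is therefore no check on calls over both regions, here or below. The list was assembled with results of these libraries known, so its counts are not independent evidence of a direction.

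Among the 10 substrates, Eln and Col3a1 were called lower after BAPN in both regions. Col3a1, the chain of collagen III, fell by 0.16 on the log2 scale (SE 0.04; edgeR adjusted p = 0.0129) in the descending aorta and by 0.27 (SE 0.04; edgeR adjusted p = 9.62e-05) in the ascending aorta. Col1a1 (-0.22), Col1a2 (-0.18) and Col5a2 (-0.13), chains of fibrillar collagens I and V, were called lower in the ascending aorta, and with the set as a term only Col1a2 of these remained called there (Col1a1 -0.16, Col1a2 -0.16, Col5a2 -0.11). Over both regions all 3 were called with the term, at -0.11 for Col1a1, -0.15 for Col1a2 and -0.081 for Col5a2. Col4a1 and Col4a2, the main chains of basement membrane collagen IV, were called higher in the descending aorta, at 0.17 and 0.19, and neither was called there with the set as a term (0.08 and 0.12). Over both regions without the term, Col4a1 was 0.10 and not called (edgeR adjusted p = 0.0511). Col4a2 was 0.13 there and called (edgeR adjusted p = 0.0242). Over both regions the term gave 0.10 for Col4a1 (edgeR adjusted p = 0.0169) and 0.13 for Col4a2 (edgeR adjusted p = 0.0100), both called. Ascending values with the term were 0.13 and 0.15 and were not called.

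Of the 6 binding partners, Fbln5 and Fn1 were called. Fbln5, which encodes fibulin-5, a protein that brings Loxl1 to elastic fibres, fell by 0.29 (SE 0.04) in the descending aorta and by 0.19 (SE 0.04) in the ascending aorta, and both calls remained with the set term. Fn1, the fibronectin on which lysyl oxidase gathers, was called higher in the descending aorta, at 2132 ± 128 CPM in BAPN and 1860 ± 109 CPM in water libraries (SD, n = 5 each; log2 difference 0.20; edgeR adjusted p = 0.00473). Efemp2, which encodes fibulin-4, the partner that ties lysyl oxidase to tropoelastin, gave -0.06 in each region, with edgeR adjusted p of 0.376 in the descending and 0.408 in the ascending aorta.

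Among the 6 tested propeptide proteases and enhancers edgeR called 2 lower in the descending and 3 lower in the ascending aorta after BAPN. Of all genes tested, 10.7% and 6.61% were called there. Bmp1, the principal protease that cuts the Lox propeptide, averaged 275 ± 7.35 CPM in descending BAPN against 303 ± 13.3 CPM in descending water libraries, and 215 ± 9.55 CPM in ascending BAPN against 258 ± 5.45 CPM in ascending water libraries (SD, n = 5 each). Its log2 difference was -0.14 (edgeR adjusted p = 0.0156) in the descending and -0.26 (edgeR adjusted p = 3.33e-05) in the ascending aorta, and both calls remained with the set term. Pcolce, an enhancer of Bmp1 on procollagen, fell by 0.16 in the descending and by 0.20 in the ascending aorta, and the descending difference was -0.15 with the set term and not called (edgeR adjusted p = 0.107). Over both regions Pcolce was -0.18 and called with the term (edgeR adjusted p = 0.000382). Adamts2, a procollagen protease, was called lower in the ascending aorta (-0.17) and was -0.12 and not called there with the set term. Over both regions it was -0.09 with and without the term and called in both fits (edgeR adjusted p = 0.0200 with the term).

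Of the 6 genes for lysyl hydroxylation of collagen, Plod2, which hydroxylates telopeptide lysines that lysyl oxidase acts on, was called lower in both regions (-0.16 descending, -0.14 ascending). Fkbp10, a chaperone that works with Plod2, was called lower in the ascending aorta (-0.16). With the set term Plod2 kept its size, at -0.14 in the descending and -0.15 in the ascending aorta, but missed the threshold (edgeR adjusted p = 0.0766 and 0.0803), and Fkbp10 in the ascending aorta was -0.074 and not called. Averaged over both regions both genes were called with the term, Plod2 at -0.15 (edgeR adjusted p = 0.000478) and Fkbp10 at -0.10 (edgeR adjusted p = 0.00471). None of the 5 tested genes for copper supply was called by edgeR, DESeq2 or limma-voom after BAPN in either region, and none had an unadjusted p under 0.05. Of all genes tested, edgeR called 10.7% in the descending and 6.61% in the ascending aorta. At such shares a list this short may hold no called gene. Slc31a1, the copper importer, stood at 33.5 ± 1.02 CPM in descending BAPN and 33.1 ± 1.51 CPM in descending water libraries (SD, n = 5 each). Likewise 0 of the 4 tested other amine oxidases and 0 of the 4 inducers were called after BAPN in either region by any of these tools, and 0 of the amine oxidases had an unadjusted p under 0.05. Tgfb1, the growth factor that raises Lox in many cells, had an unadjusted p of 0.0162 in the ascending aorta (edgeR adjusted p = 0.132), at 54.5 ± 5.07 CPM in BAPN and 61.6 ± 2.94 CPM in water libraries (SD, n = 5 each).

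**Figure D5:**
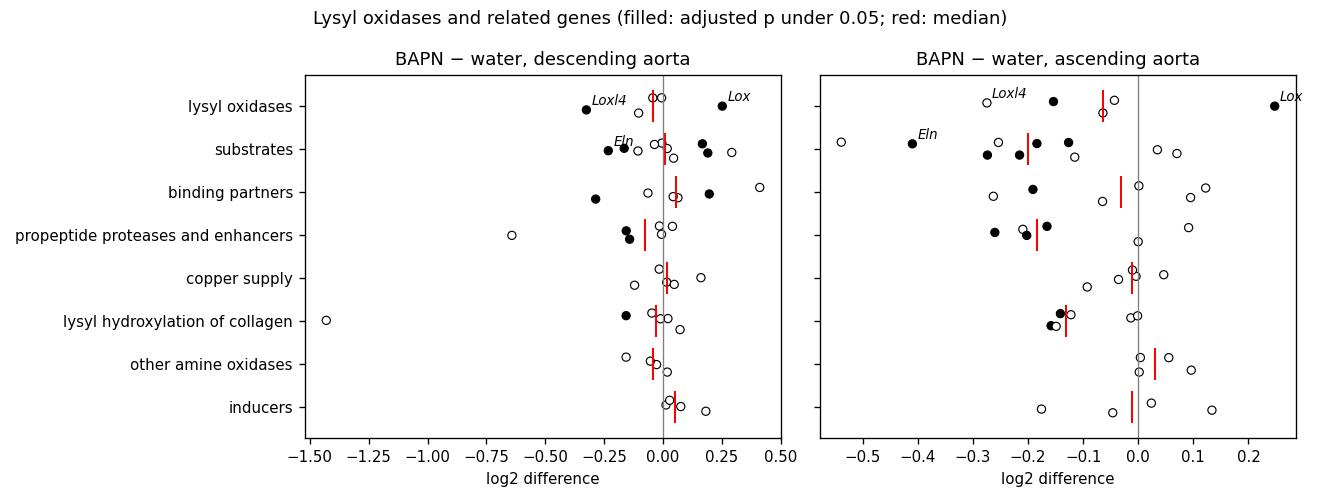
Log2 differences between BAPN and water for the genes of the crosslinking pathway by role, with the family in the top line, in the descending and ascending aorta (each point a gene; filled, called by edgeR; red line, median; the panels differ in scale). Of the 41 tested pathway genes, 3 are called higher and 6 lower in the descending aorta, and 0 higher and 11 lower in the ascending aorta.

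Between regions edgeR called 23 pathway genes higher and 7 lower in the descending aorta after BAPN, and 19 higher and 8 lower after water, of 41. Of all 15543 genes, 2190 were called higher and 2409 lower after BAPN (29.6%), and 1889 higher and 2356 lower after water (27.3%). With the set as a term these became 14 and 7 after BAPN, and 18 and 8 after water. Fibrillar collagen chains Col1a1, Col1a2, Col3a1 and Col5a1 were called higher in the descending aorta under both treatments. Col5a2 and Col5a3 were called higher there after BAPN only, and Col5a2 was not called with the set term. Col11a1, also a fibrillar chain, was called lower under both treatments, with log2 differences of -1.44 after BAPN and -2.27 after water. It was sparse, with its highest group mean at 7.92 CPM in ascending water libraries. Pcolce2 averaged 261 ± 10.4 CPM in descending BAPN against 165 ± 10.5 CPM in ascending BAPN libraries, and 262 ± 6.68 CPM in descending water against 155 ± 8.04 CPM in ascending water libraries (SD, n = 5 each). Thbs1, which encodes the matrix protein thrombospondin-1, ran the other way, at 123 ± 27.7 CPM in descending BAPN against 368 ± 68.4 CPM in ascending BAPN libraries, and 92.1 ± 11.5 CPM in descending water against 345 ± 16.9 CPM in ascending water libraries (SD, n = 5 each).

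Tll1, a protease related to Bmp1, and Colgalt2, which adds galactose to hydroxylysine, were close to absent from the descending aorta. Tll1 had 16 counts over the 5 descending BAPN libraries and 266 over the 5 ascending BAPN libraries, and 25 in descending water and 352 in ascending water libraries. Colgalt2 had 9 counts in descending BAPN and 493 in ascending BAPN libraries, and 25 in descending water and 630 in ascending water libraries. Maob, a mitochondrial amine oxidase that does not act on matrix, was lower in descending libraries, at 15.8 ± 1.51 CPM against 30.0 ± 1.56 CPM in ascending libraries after BAPN (SD, n = 5 each). Aoc3, a copper amine oxidase of smooth muscle and endothelial cells, was higher, at 648 ± 24.9 CPM against 558 ± 22.7 CPM (SD, n = 5 each). These 2 regional calls held after water as well, and the log2 difference of Aoc3 after BAPN was 0.22, and 0.13 and not called with the set term (edgeR adjusted p = 0.194).

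Each member was last compared with the other protein-coding genes of at least 5 CPM, 10780 in all, by the root mean square difference of their centred log2 CPM over the 20 libraries. Closest to Lox came Efhd1 (0.084), which encodes a calcium-binding protein of mitochondria, then Mark1 (0.10), a kinase of microtubule-binding proteins, and Fgfr2 (0.11), a receptor for fibroblast growth factors. Lox itself varied by 0.36 on the same measure. Efhd1 averaged 183 CPM in descending BAPN, 150.2 in descending water, 112 in ascending BAPN and 95.3 in ascending water libraries, which is the order of the Lox bands.

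Closest to Loxl1 came Chpf (0.048), a chondroitin synthase component, Ctdsp1 (0.056), a phosphatase, and Plod1 (0.058), a lysyl hydroxylase. Closest to Loxl3 came Serpinh1 (0.048), the collagen chaperone, Col6a1 (0.057), a chain of collagen VI, and P3h1 (0.067), a collagen prolyl hydroxylase. Serpinh1 averaged 1575 CPM in descending BAPN, 1648 in descending water, 1232 in ascending BAPN and 1255 in ascending water libraries. Loxl2 varied by only 0.095 itself, so that its nearest genes Cops7a (0.070), Mul1 (0.075) and Clmp (0.078) were hardly closer to it than a constant level would be. For Loxl4 the nearest were Vamp3, Xrcc2 and Mfsd12, at 0.16 each, against 0.25 for Loxl4 itself.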

How the data were processed

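RNA of 20 aortic samples was made into libraries with a NEBNext Ultra kit, per the labels' protocols. The authors deposited raw read counts for each Ensembl gene, and 20 per-library files were checked to equal the series table. The tools fastp, STAR 2.5, HTSeq 0.6.1 and the build mm10 are named in the submitters' processing notes; their settings, strand use and annotation are not given in the sources used here. In the titles A and D were read as ascending and descending aorta, and B and V as BAPN and water. Symbols, lengths and coordinates are those of GENCODE vM21 on GRCm38.

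Genes were kept by filterByExpr (minimum count 10, minimum total 15). A quasi-likelihood model was fitted to all 20 libraries in edgeR 4.0.16 (R 4.3.3, limma 3.58.1), with 1 coefficient per group and 16 residual degrees of freedom. Benjamini-Hochberg adjustment ran over all 15543 genes of each comparison, and genes under 0.05 were called. CPM are counts scaled by TMM factors, computed here from the deposited counts, except that sums of marker CPM use library totals without these factors. Standard errors and 95% intervals are of the log2 difference. For edgeR's comparisons the standard error was derived from the log2 difference and the F statistic. Intervals used the normal distribution, so they are somewhat narrower than the test itself implies. Lox over Eln was tested by exact two-sided permutation. The named genes are the members, Eln, pathway genes called, other pathway genes with values only, the 3 genes most like each member, and genes whose exons overlap a member's.

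The members, pathway lists, library sets and alternatives were chosen with earlier results of these data known. Alternatives were other scalings and filters, DESeq2 1.42.0, limma-voom, a replicate block, fitting only the pair of groups compared, the library set as a term or by itself, and leaving out each library.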

Additional observations from a re-analysis of the deposited data

Results flagged for a closer look

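Over 24 groups of 5 libraries (5 members and the Lox to Eln ratio in 4 groups), 3 held a library far from the others by Dixon's test, where chance alone marks about 1 group in 20. Loxl4 stood at 19.8 CPM in descending water replicate 2, where the other 4 libraries of the group had 15.3 to 16.5 CPM. Without that library the Loxl4 difference between BAPN and water in the descending aorta was -0.25 and was no longer called. Loxl4 stood at 14.8 CPM in ascending water replicate 5, where the other 4 had 13.5 to 13.9 CPM. The log2 ratio of Lox to Eln was -5.31 in ascending water replicate 1, the lowest of its group.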

How the results depend on the processing

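The log2 differences of Lox between treatments (each region and their mean) and between regions (each treatment) kept direction and call under every alternative run for them. So did the regional calls of Loxl1 and Loxl3, the mean decrease of Loxl4, and the Lox to Eln ratio between treatments and between regions after BAPN. For the ratio the only alternative was leaving out each library, apart from the values within library sets given above. No set term and no other tool was run for it. For means of both regions the set term was no check, because the imbalance of the sets cancels there. In every fit with the term, the effect of the set was estimated from water libraries alone. With the library set as a term Loxl1 in the ascending aorta was -0.066 and not called, Loxl4 in the descending aorta was -0.28 and not called, and Loxl2 in the descending aorta (-0.18) and Loxl1 over both regions (-0.078) were called. That term gave Loxl2 a difference of 0.018 in the ascending aorta, and it gave differences of effects of -0.028 for Lox, -0.025 for Loxl1 and 0.043 for Loxl4, each opposite in sign to the value reported and not called. Among the higher-set libraries alone the ascending differences were -0.066 for Loxl1, 0.0027 for Loxl2 and 0.0033 for Loxl3, and among the lower-set libraries alone Loxl4 in the descending aorta was -0.28, none of them called. Loxl1 over both regions was called with upper-quartile scaling (-0.10), with no filter (-0.087) and with the replicate block (-0.080). Loxl4 between regions after water was called with no filter (0.25), in a fit to the compared groups alone (0.25) and with the replicate block within treatment (0.25). The difference of effects of Lox was -0.0081 with upper-quartile scaling and -0.0023 with the stricter filter, and that of Loxl3 was 0.011 with no filter.

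Leaving out 1 library at a time gave BAPN differences of -0.19 to -0.13 for Loxl1 and -0.35 to -0.21 for Loxl4 in the ascending aorta, and Loxl4 was called there only without BAPN replicate 3. In the descending aorta it gave -0.027 to 0.021 for Loxl1 and -0.38 to -0.25 for Loxl4, and for the mean of regions -0.096 to -0.067 for Loxl1. Between regions Loxl2 ran from -0.067 to 0.012 after BAPN and from -0.023 to 0.049 after water, and Loxl4 from 0.18 to 0.28 after water. Differences of effects ran from -0.028 to 0.030 for Lox, -0.079 to 0.00057 for Loxl2, -0.021 to 0.040 for Loxl3 and -0.12 to 0.020 for Loxl4. The log2 Lox to Eln ratio between regions after water ran from -0.23 to -0.15. The cause of these changes was not tested.

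Counts of all genes called moved by over 1.5 times with the library sets: in the ascending aorta 601 with the term and 605 in the higher set, against 1028; in the descending aorta 557 in the lower set, against 1665. Between regions they were 2731 with the term after BAPN, against 4599, and 2675 and 2661 in the higher and lower set after water, against 4245. For the difference of effects 78 were called with no filter, 14 by DESeq2, 18 with the replicate block within treatment and 1 to 7 without 1 of 5 libraries, against 0. The fits within a set have fewer samples. Same-numbered libraries did not meet the rule for pairing, although each of the 5 descending BAPN libraries correlated best with the ascending BAPN library of its own number (r 0.0475 to 0.0856), a hint from the data and not from the design. If such libraries share animals, tests over both regions rest on fewer independent samples than libraries. The replicate block within treatment was not run for the mean of both regions. By Pearson's r in place of root mean square difference, 0 of the 3 genes most like each member were shared. The mean of regions and the difference of effects could not be fitted to 2 groups alone. Loxl4 had the fewest counts of the family, 156 to 326 per library, and the highest biological coefficient of variation, 0.098.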
